A study of Mus musculus with 15 samples.

Results

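The 10 genes described here encode enzymes that store fatty acids and cholesterol as neutral lipid: Dgat1 and Dgat2, Soat1, the long-chain acyl-CoA synthetases Acsl1, Acsl3, Acsl4 and Acsl5, and Gpat3, Agpat2 and Lpin1 of the glycerol backbone. The rule that picks them uses their names and function and no measured value, though it was set with earlier results of these data known, and all 10 were found by symbol among the 55486 genes of the count table. The libraries were bulk RNA-seq of macrophages sorted by flow cytometry from mouse brain tumours. There were 4 libraries of microglia, the resident macrophages of the brain, 4 of lipid-laden microglia, 4 of monocyte-derived macrophages (MDM), which enter the tumour from blood, and 3 of lipid-laden MDM. In the text, microglia and MDM without a further word are the cells labelled non-lipid-laden.

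Every group, controls included, carried the labelled genotype Ink4a/ArfKO, PDGFB: the growth factor PDGFB was expressed in Nestin-positive progenitors of mice without Ink4a/Arf, and no agent or age is labelled. No tumour-free macrophages were compared. The number in each title (224, 221, 431 or 718) names a library within its group, and number 431 of the lipid-laden MDM was not analysed here. The labels do not say that a number is an animal or that libraries came from separate animals, so p-values measure the spread between these libraries, which may in part be technical. How lipid-laden cells were stained and gated is not stated in the labels.

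Cells turn surplus fatty acids into triglyceride and surplus cholesterol into cholesteryl ester, and keep both in lipid droplets. Acyl-CoA synthetases first activate the fatty acid. GPAT, AGPAT and lipin enzymes then build diacylglycerol on glycerol phosphate, and DGAT enzymes add the last acyl chain, while SOAT enzymes esterify cholesterol in the endoplasmic reticulum. In brain macrophages that take up myelin, which is rich in cholesterol, these steps are known to buffer the load and to give the cells a foamy look.

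Levels are given as CPM, read counts scaled to library size with TMM factors. Total counts ran from 7798952 to 11419338 per library, and all 10 genes passed the filter on low counts. A principal component analysis placed MDM at 111 to 127, lipid-laden MDM at 7.96 to 35.9 and all microglial libraries between -80.9 and -60.4 on the leading axis (36.2% of the variance). On the next axis (11.1%), the lipid-laden microglia library 221 (-119) and the lipid-laden MDM library 221 (-67.4) stood apart from the rest. Summed CPM of 10 microglial markers was 10408 to 16004 in microglia, 6655 to 17365 in lipid-laden microglia, 2572 to 4084 in MDM and 7139 to 10787 in lipid-laden MDM. Summed CPM of 10 markers of monocyte-derived macrophages was 6437 to 6893 in MDM, 5571 to 6823 in lipid-laden MDM and at most 2652 in a microglial library. By that sum, the labels of origin matched the list of monocyte-derived macrophage markers in all 4 groups. Gene by gene, all 10 were called higher in MDM than in microglia. Between the lipid-laden groups 6 of the 10 were called higher in MDM and 4 were not called. The microglial list set MDM apart from microglia but not lipid-laden MDM. In that list the lipid-laden MDM libraries lay above every MDM library and overlapped both microglial groups. Markers of adipocytes and hepatocytes, which are rich in several of the 10 enzymes, summed to at most 8.80 CPM in any library.

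Of the 10 enzyme genes, 2 were called different between MDM and microglia in the edgeR test, and none was called with lipid load. Dgat1 and Acsl1 were higher in MDM than in microglia at an adjusted p under 0.05 (edgeR quasi-likelihood test, Benjamini-Hochberg adjustment over 14843 genes). In that comparison 23.2% of all genes tested were called, and 10.7% were called higher in MDM, so 2 of 10 genes was near the background. No enzyme gene was called between lipid-laden and other microglia, where 0% of all genes were called, or between lipid-laden MDM and MDM, where 8.17% were. None was called between lipid-laden MDM and lipid-laden microglia (2.78% of all genes) or for the difference of the lipid-load effect between origins (2.53%). At an unadjusted p under 0.05, edgeR counted 2, 4, 1 and 2 of the 10 genes in these last 4 comparisons, in that order. The shares over all genes tested were 9.21%, 22.8%, 14.7% and 16.1%. DESeq2 called 0, 1, 0 and 1 of the 10 genes and limma-voom 0, 1, 0 and 0. Of all 14843 genes, DESeq2 called 164, 1982, 798 and 960 and limma-voom 0, 1460, 561 and 424. With the library number as a block, 0 enzyme genes were called between lipid-laden and other microglia, against 119 genes of the whole table. The comparisons share groups, so their values are not independent of one another.

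The median log2 fold change of the 10 genes was 0.44 between MDM and microglia, against -0.12 over all genes tested. For lipid load the median was 0.11 in microglia (all genes -0.02) and -0.23 in MDM (all genes 0.04). Between the lipid-laden groups it was 0.03 (all genes -0.03), and for the difference of the lipid-load effect -0.36 (all genes 0.10). RNA from a sorted pool cannot show whether fewer cells of a type or less RNA per cell lies behind a lower level.

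**Figure D1:**
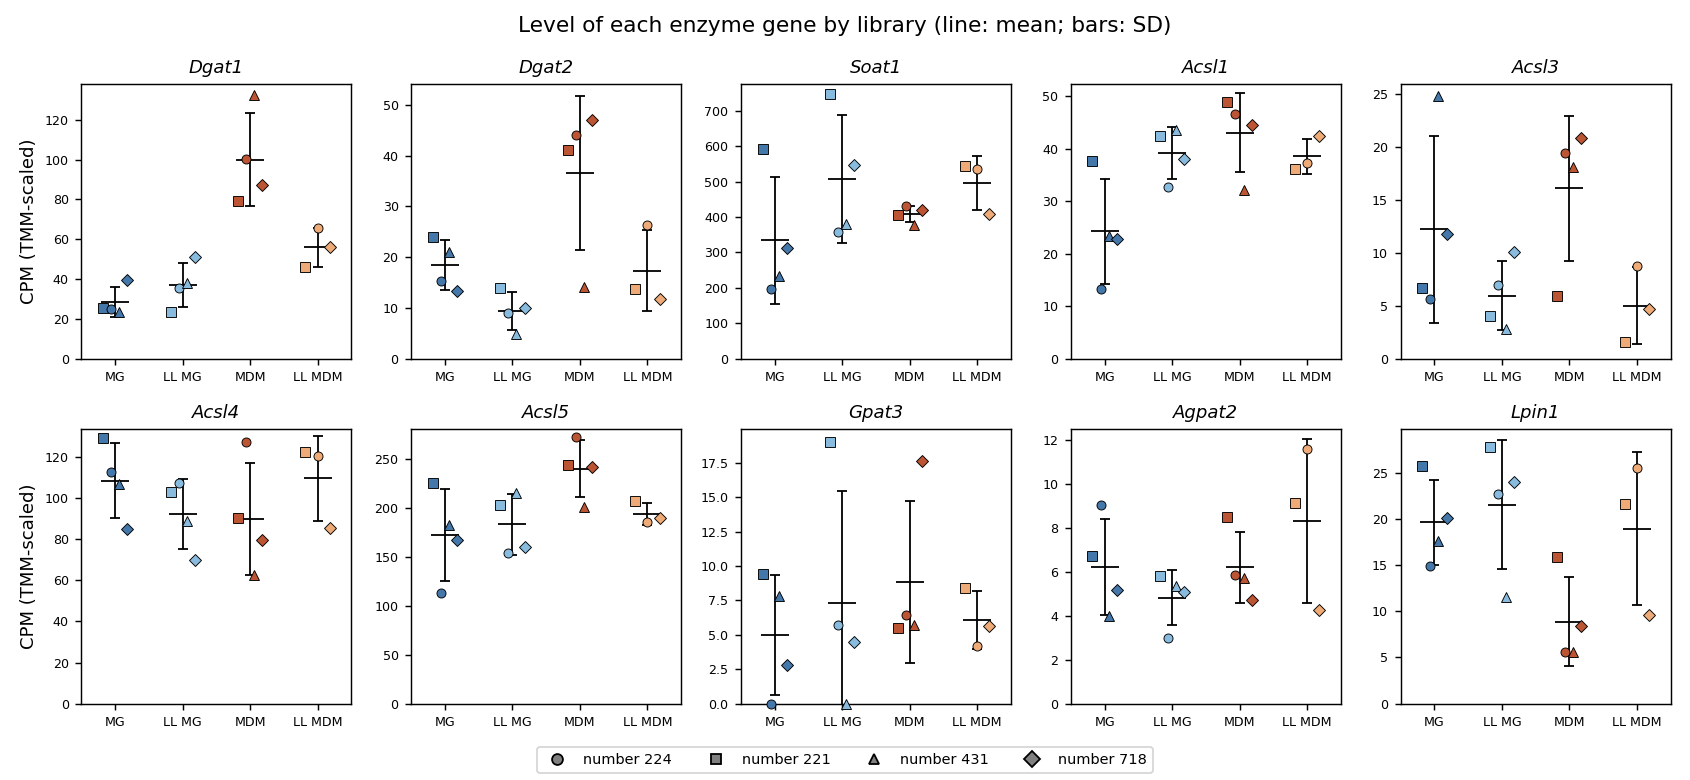
CPM of each of the 10 enzyme genes (vertical axes, linear, from 0) in the 15 libraries, by group (MG microglia, LL MG lipid-laden microglia, MDM, LL MDM lipid-laden MDM). Each point is a library with its number as the symbol, the line is the group mean and the bars are ± SD, clipped at 0 for Gpat3; Dgat1 in the 4 MDM libraries, from 79.4 to 133 CPM, lies above every other library.

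Divided by exon length, Acsl5 and Soat1 had the highest group means of the 10 in all 4 groups. Their order depends on that division: in plain CPM, microglia had 335 ± 179 of Soat1 and 172 ± 46.9 of Acsl5. Reads of Zdhhc6 may also be mixed into Acsl5, as given below. In microglia Acsl5 was at 35.5 ± 9.63 CPM per kb (mean ± SD, n = 4) and Soat1 at 34.2 ± 18.3, a difference within their spread. Acsl4 followed at 20.1 ± 3.39, with a range (15.7 to 23.9) that overlapped those of Soat1 (20.2 to 60.7) and Acsl5 (23.2 to 46.5). Next were Dgat1 at 9.28 ± 2.41 and Dgat2 at 5.96 ± 1.60 CPM per kb, where Acsl4 did not overlap Dgat1 and the ranges of Dgat1 and Dgat2 touched (lowest 7.73 against highest 7.78). Agpat2, Acsl3, Acsl1, Lpin1 and Gpat3 lay between 2.92 and 1.43 CPM per kb with overlapping ranges. In MDM, Dgat1 came next after Acsl5 and Soat1, at 32.7 ± 7.66 CPM per kb and overlapping Soat1. It was above Acsl4 at 16.6 ± 5.07, and no MDM library of Acsl4 reached the lowest of Dgat1. In lipid-laden MDM, Acsl4 at 20.3 ± 3.84 and Dgat1 at 18.3 ± 3.19 CPM per kb overlapped (n = 3).

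Dgat1 (ENSMUSG00000022555, chromosome 15, 76502015 to 76511953, mm10) encodes the acyltransferase that completes triglyceride in the endoplasmic reticulum, chiefly from fatty acids taken up from outside. In microglia numbered 224, 221, 431 and 718 it was at 24.8, 25.6, 23.6 and 39.3 CPM. In lipid-laden microglia of the same numbers it was at 35.4, 23.5, 37.8 and 51.0 CPM. In MDM it was at 100.1, 79.4, 133 and 87.4 CPM, and in lipid-laden MDM 224, 221 and 718 at 65.6, 46.0 and 56.1 CPM. Every MDM library was thus above every library of the other 3 groups, while lipid-laden MDM overlapped lipid-laden microglia.

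MDM had 3.52-fold the Dgat1 level of microglia (log2 1.82, SE 0.25, edgeR adjusted p = 9.65e-05), with all 4 MDM libraries above all 4 microglia libraries. The log2 difference stayed between 1.67 and 2.03 and below an adjusted p of 0.05 under all 17 alternative settings. Between lipid-laden MDM and MDM it was -0.84 (SE 0.27, edgeR adjusted p = 0.0697), with no overlap of the groups. That value passed with DESeq2 (adjusted p = 0.0202), with limma-voom (0.0348) and when only these 2 groups were fitted (0.0480), and over all 16 alternatives the adjusted p ran from 0.0108 to 0.210. In microglia the lipid-load difference was 0.38 (SE 0.25, edgeR adjusted p = 0.698), with 3 of 4 pairs higher. The difference between the lipid-load effects was -1.22 (SE 0.37, edgeR adjusted p = 0.0937). It passed with DESeq2 (adjusted p = 0.0225) and without the lipid-laden microglia library 221 (-1.39, edgeR adjusted p = 0.0477). Between lipid-laden MDM and lipid-laden microglia, Dgat1 differed by 0.60 (SE 0.26, edgeR adjusted p = 0.304).

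Markers of other cells moved along the same axis. Of the 10 microglial markers, 9 were higher in lipid-laden MDM than in MDM. Of the 10 markers of monocyte-derived macrophages, 4 were lower there and none higher (median log2 difference -1.03), and of 8 general macrophage markers 6 were higher and 1 lower. Of 10 dendritic cell markers, 6 were lower in lipid-laden MDM and all 10 were higher in MDM than in microglia. Summed CPM of the dendritic list was 33.1 to 58.6 in microglia, 21.7 to 33.6 in lipid-laden microglia, 1232 to 2758 in MDM and 187 to 248 in lipid-laden MDM. None of its genes was at 0 throughout MDM or lipid-laden MDM, and Clec9a, Cd209a and Dpp4 were at 0 in lipid-laden microglia. The MDM library with the highest Dgat1, number 431 at 133 CPM, had the lowest dendritic sum of the MDM libraries, 1232 CPM. Of 10 T and NK cell markers 6 were also higher in MDM than in microglia, with sums of 37.4 to 176 against 1.39 to 9.25 CPM. Of 10 glioma and progenitor markers all were lower in MDM than in microglia, with sums of 14.6 to 24.7 against 136 to 468 CPM, and 5 were higher in lipid-laden MDM, with sums of 83.1 to 154 CPM. Sox2 was at 0 in every MDM library. The part of these cells in the Dgat1 result, and in the other differences of MDM below, was not tested.

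**Figure D2:**
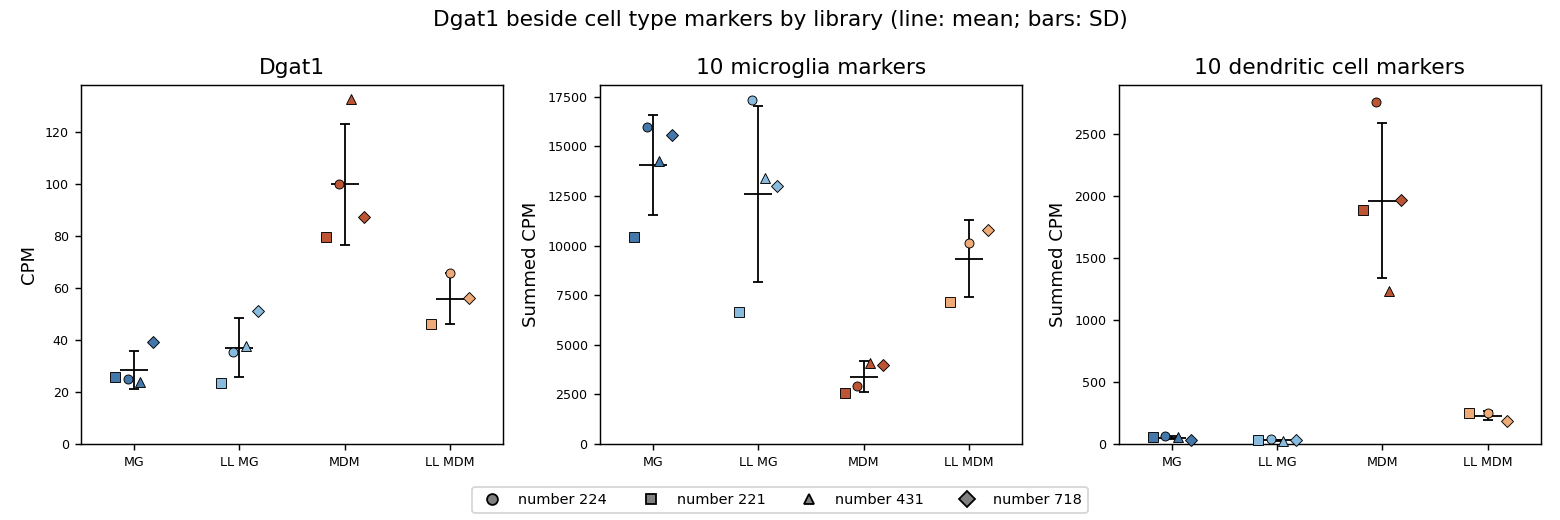
Dgat1 (left, CPM) beside the summed CPM of 10 microglial markers (middle) and 10 dendritic cell markers (right) in each of the 15 libraries, on linear axes from 0, with points by library number, group mean and ± SD. The 3 lipid-laden MDM libraries lie above all MDM libraries in the microglial sum (7139 to 10787 CPM) and well below MDM in the dendritic sum (187 to 248 CPM).

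Dgat2 (ENSMUSG00000030747, chromosome 7, 99153658 to 99182719) encodes the unrelated acyltransferase that makes triglyceride at the droplet, chiefly from newly made fatty acids. It was at 15.4, 24.0, 20.9 and 13.3 CPM in microglia 224, 221, 431 and 718, and at 8.91, 13.9, 4.74 and 9.86 CPM in their lipid-laden counterparts. In MDM it was at 44.1, 41.2, 14.1 and 47.1 CPM, and in lipid-laden MDM 224, 221 and 718 at 26.4, 13.8 and 11.8 CPM. The lipid-laden library had the lower value in 4 of 4 microglial pairs, but the groups with and without lipid load overlapped in microglia and in MDM.

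Neither lipid-load difference of Dgat2 passed: it was -0.98 in microglia (SE 0.41, edgeR adjusted p = 0.488) and -1.08 in MDM (SE 0.45, edgeR adjusted p = 0.160). The difference between these effects was -0.10 (SE 0.60, edgeR adjusted p = 0.975), an error too wide to show that they were alike. MDM against microglia gave 0.99 (SE 0.41, edgeR adjusted p = 0.0924). The MDM library 431 was the low one, and without it the difference was 1.28 (edgeR adjusted p = 0.0232). Between the lipid-laden groups Dgat2 differed by 0.89 (SE 0.44, edgeR adjusted p = 0.368).

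The ratio of Dgat1 to Dgat2, each per kb of exon, was examined after these values were seen and has no test. In microglia 224, 221, 431 and 718 it was 1.63, 1.08, 1.14 and 2.99, and in their lipid-laden counterparts 4.01, 1.71, 8.05 and 5.22. In MDM it was 2.29, 1.95, 9.52 and 1.87, and in lipid-laden MDM 224, 221 and 718 it was 2.51, 3.37 and 4.79. The ratio was higher in the lipid-laden library of all 4 microglial pairs, and in MDM the groups with and without lipid load overlapped. The MDM library 431, with the highest Dgat1 and the lowest Dgat2 of its group, had the highest ratio of all libraries.

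Soat1 (ENSMUSG00000026600, chromosome 1, 156424525 to 156474331) encodes the enzyme that esterifies cholesterol in macrophages. It was at 198, 594, 235 and 313 CPM in microglia 224, 221, 431 and 718, and at 357, 748, 379.5 and 546 CPM in lipid-laden microglia of those numbers. In MDM it was at 433, 407, 377 and 419 CPM, and in lipid-laden MDM 224, 221 and 718 at 535, 545 and 408 CPM. Library 221 was the highest in both microglial groups, and MDM libraries were close together, with a coefficient of variation of 5.86% against 53.6% in microglia.

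Soat1 was higher in the lipid-laden library of 4 of 4 microglial pairs, but the difference of 0.60 did not pass (SE 0.29, edgeR adjusted p = 0.556), with the number as a block 0.250. It passed only with DESeq2 and the block together (adjusted p = 0.0424). In MDM the lipid-load difference was 0.28 (SE 0.32, edgeR adjusted p = 0.674). MDM against microglia gave 0.29 (SE 0.29, edgeR adjusted p = 0.533), and without the microglia library 221 it was 0.74 (edgeR adjusted p = 0.0357). The lipid-laden groups differed by -0.03 (SE 0.32, edgeR adjusted p = 0.982). Soat2, the other esterifying enzyme, was low, at 9.37 ± 5.89 CPM in microglia and 16.0 ± 5.37 in MDM, and was not called (0.77, SE 1.01, edgeR adjusted p = 0.643).

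**Figure D3:**
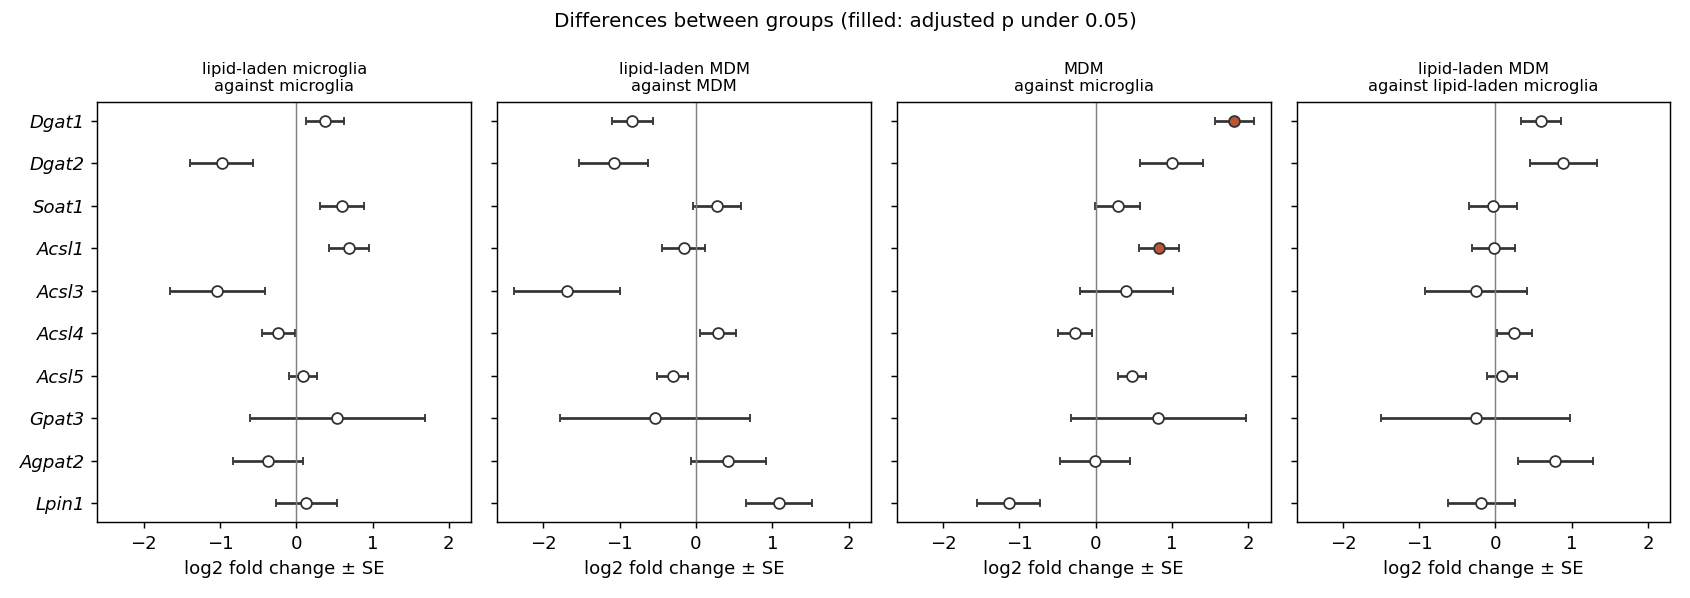
Log2 fold change (horizontal axes, ± SE, 15 libraries in a single fit) of the 10 enzyme genes in 4 comparisons, with filled points for an adjusted p under 0.05. Only Dgat1 (1.82) and Acsl1 (0.83) are filled, both for MDM against microglia.

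Acsl1 (ENSMUSG00000018796, chromosome 8, 46471037 to 46536051) encodes an acyl-CoA synthetase that is prominent in triglyceride-storing tissues and is induced in inflamed macrophages. RefSeq gives it 2 start regions on the plus strand, and the gene-level counts add both up. They are shown because Acsl1 was called and its start regions differ in base composition: 74% of bases are G or C in the upstream region and 50% in the downstream one, against a median of 52.7% over all 32851 promoters of the RefSeq table (GRCm38.p6, 250 bases before to 50 after each start). The regions are chr8:46470787-46471086 (upstream) and chr8:46490716-46491015 (downstream), and capitals mark a match to the sterol regulatory element TCACNCCAC on either strand.
Acsl1 upstream: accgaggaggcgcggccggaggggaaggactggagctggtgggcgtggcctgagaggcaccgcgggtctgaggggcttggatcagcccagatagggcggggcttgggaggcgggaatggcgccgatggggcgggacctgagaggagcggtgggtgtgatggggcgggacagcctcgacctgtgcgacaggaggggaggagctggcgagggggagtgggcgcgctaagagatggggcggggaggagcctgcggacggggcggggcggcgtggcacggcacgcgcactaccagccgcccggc
Acsl1 downstream: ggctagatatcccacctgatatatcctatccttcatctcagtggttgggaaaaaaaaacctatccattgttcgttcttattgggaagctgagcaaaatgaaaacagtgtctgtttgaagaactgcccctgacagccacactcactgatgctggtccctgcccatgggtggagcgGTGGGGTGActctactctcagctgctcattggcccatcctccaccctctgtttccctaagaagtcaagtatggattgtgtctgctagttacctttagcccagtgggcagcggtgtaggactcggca

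The downstream region held 1 such match and the upstream region none, and 1.24% of all promoters in the table hold one. Of the 9 promoters found for 8 of the 10 genes, no other held this motif, and none held the E-box CACGTG (7.15% of all promoters) or the PU.1 core GAGGAAG (13.6%). The nuclear receptor element AGGTCA (16.3% of all promoters) was found once, in the promoter of Lpin1 (chr12:16610917-16611216, minus strand). Motifs were searched on both strands, and no promoter of these genes held more than 1 match, so no matches overlapped. These are matches of letters in 300 bases, not sites of binding, and the gene counts cannot be divided between the Acsl1 starts.

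Acsl1 was at 13.2, 37.6, 23.4 and 22.8 CPM in microglia 224, 221, 431 and 718, and at 32.7, 42.5, 43.6 and 37.9 CPM in lipid-laden microglia of those numbers. In MDM it was at 46.5, 49.0, 32.1 and 44.5 CPM, and in lipid-laden MDM 224, 221 and 718 at 37.3, 36.0 and 42.3 CPM. Microglia held the 3 lowest libraries of all, and the microglia library 221 reached into the range of the other groups.

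Acsl1 was 1.77-fold higher in MDM than in microglia (log2 0.83, SE 0.26, edgeR adjusted p = 0.0318), though the groups overlapped. The call was lost when microglia 224, 431 or 718 or MDM 224, 221 or 718 was left out (log2 0.64 to 0.84, edgeR adjusted p = 0.0599 to 0.0758) and when only these 2 groups were fitted (0.0659). With lipid load the difference was 0.69 in microglia (SE 0.26, edgeR adjusted p = 0.425), higher in 4 of 4 pairs, and -0.16 in MDM (SE 0.28, edgeR adjusted p = 0.812). The difference between these effects was -0.85 (SE 0.38, edgeR adjusted p = 0.283).

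Acsl5 (ENSMUSG00000024981, chromosome 19, 55251938 to 55297720), a synthetase known from intestine and liver, ran from 113 to 226 CPM in microglia, from 154 to 216 in lipid-laden microglia, from 202 to 273 in MDM and from 186 to 207 in lipid-laden MDM. MDM against microglia gave 0.48 (SE 0.18, edgeR adjusted p = 0.0731). It passed with DESeq2 (adjusted p = 0.0385), with limma-voom (0.0457) and without the microglia library 221 (0.66, edgeR adjusted p = 0.0183). The protein-coding gene Zdhhc6 overlaps Acsl5 on the other strand, with 12718 counts in all libraries against 27862 of Acsl5. Since it is not given whether counting used strand, reads of the pair may be mixed.

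Acsl4 (ENSMUSG00000031278, chromosome X, 142317993 to 142390535), which prefers arachidonate and other polyunsaturated fatty acids, ran from 85.0 to 129 CPM in microglia and from 69.8 to 107 in lipid-laden microglia. It ran from 62.5 to 127 CPM in MDM and from 85.5 to 122 in lipid-laden MDM, so all 4 groups overlapped. Its fold changes lay between -0.27 and 0.29 in the 4 comparisons of groups, with edgeR adjusted p from 0.410 to 0.839.

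Acsl3 (ENSMUSG00000032883, chromosome 1, 78657825 to 78707743) encodes a synthetase that marks nascent lipid droplets. It was at 5.59, 6.61, 24.8 and 11.8 CPM in microglia 224, 221, 431 and 718, at 6.91, 4.02, 2.78 and 10.1 in lipid-laden microglia, at 19.4, 5.95, 18.1 and 20.8 in MDM, and at 8.76, 1.54 and 4.63 in lipid-laden MDM 224, 221 and 718. Lipid-laden MDM against MDM gave -1.69 (SE 0.70, edgeR adjusted p = 0.154), and the groups overlapped through the MDM library 221. In microglia the difference was -1.03 (SE 0.62, edgeR adjusted p = 0.660), with 1 of 4 pairs higher. Acsl3 shares its locus and strand with Utp14b (789 counts in all libraries against 1406 of Acsl3), so its low counts are uncertain.

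Set against one another per kb of exon, Acsl5 made up 57.9% ± 5.82 of the 4 synthetases in microglia, 62.8% ± 4.70 in lipid-laden microglia, 67.2% ± 2.59 in MDM (SD, n = 4 each) and 61.6% ± 3.65 in lipid-laden MDM (n = 3). Acsl4 followed with group means from 22.1% to 33.8%. Acsl1 had a mean share of 3.70% ± 0.86 in microglia, against 6.26% ± 0.58 in lipid-laden microglia, where every library was above every microglia library (5.56% to 6.98% against 2.71% to 4.75%). That comparison of shares was made after the values were seen and has no test. Acsl3 had mean shares from 1.78% to 5.07%. The order Acsl5 above Acsl4 held in all 15 libraries. These shares depend on the exon lengths used, and reads of Zdhhc6 may be mixed into that of Acsl5.

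**Figure D4:**
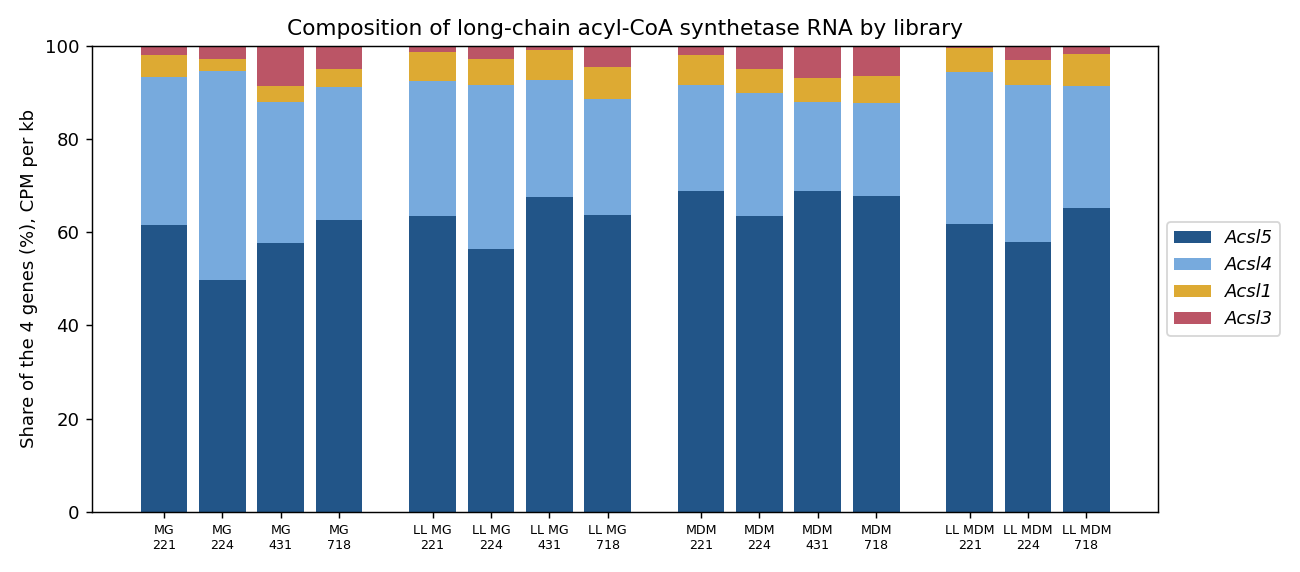
Stacked shares (%, linear axis from 0 to 100) of Acsl5, Acsl4, Acsl1 and Acsl3 in their summed CPM per kb of exon, 1 bar per library, grouped as MG, LL MG, MDM and LL MDM. Acsl5 is the largest share in each of the 15 bars, from 49.8% to 68.8%.

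Lpin1 (ENSMUSG00000020593, chromosome 12, 16535669 to 16646966) encodes a lipin, the phosphatase that makes diacylglycerol from phosphatidate and also acts in the nucleus. It was at 14.9, 25.7, 17.7 and 20.1 CPM in microglia 224, 221, 431 and 718, and at 22.7, 27.8, 11.5 and 24.0 CPM in lipid-laden microglia. In MDM it was at 5.64, 15.9, 5.60 and 8.42 CPM, and in lipid-laden MDM 224, 221 and 718 at 25.5, 21.6 and 9.64 CPM. MDM held the lowest libraries, and only number 221 among them overlapped microglia.

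Lpin1 in MDM against microglia gave -1.14 (SE 0.41, edgeR adjusted p = 0.0561). It passed with DESeq2 (adjusted p = 0.0327), with upper-quartile scaling (0.0399) and without the MDM library 221 (-1.58, edgeR adjusted p = 0.0138). Lipid-laden MDM against MDM gave 1.09 (SE 0.44, edgeR adjusted p = 0.143), and 1.52 without the MDM library 221 (edgeR adjusted p = 0.0442). In microglia the lipid-load difference was 0.13 (SE 0.40, edgeR adjusted p = 0.976). The difference between the effects was 0.96 (SE 0.59, edgeR adjusted p = 0.457).

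Gpat3 (ENSMUSG00000029314, chromosome 5, 100845713 to 100899102) encodes a microsomal enzyme of the first acylation of glycerol phosphate, and Agpat2 (ENSMUSG00000026922, chromosome 2, 26593057 to 26604417) a main enzyme of the second. Both were low. Gpat3 had 0 counts in the microglia library 224 and in the lipid-laden microglia library 431, and otherwise ran from 2.78 to 19.0 CPM. Its errors were wide (SE 1.14 to 1.24 for the 4 comparisons of groups, edgeR adjusted p from 0.667 to 0.963). Agpat2 ran from 3.01 to 11.6 CPM over all libraries, with fold changes from -0.37 to 0.79 (edgeR adjusted p from 0.507 to 0.994). Agpat2 overlaps Egfl7 on the other strand, with 390 counts against 873. At these counts, even differences larger than their errors could go uncalled for either gene. Agpat2 between the lipid-laden groups was such a case (0.79, SE 0.49, edgeR adjusted p = 0.507).

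Of 15 other isoforms of the same families 11 were tested. In MDM against microglia 2 were higher and 3 lower (45.5%, against 23.2% of all genes), with a median of -0.57 against -0.12 over all genes. Agpat4, which acylates lysophosphatidate as Agpat2 does, was at 18.6 ± 8.15 CPM in microglia and 135 ± 30.6 in MDM (2.86, SE 0.41, edgeR adjusted p = 0.000128). Agpat3, of the same family, was lower in MDM, at 62.9 ± 12.4 against 19.2 ± 12.1 CPM (-1.71, SE 0.33, edgeR adjusted p = 0.00138). Lpin2, another lipin, was also lower, at 124 ± 22.5 against 50.4 ± 5.38 CPM (-1.30, SE 0.19, edgeR adjusted p = 0.000143). Acsl6, a synthetase known from brain, had 131 counts in microglia and 0 in all 4 MDM libraries, which is at least 45.9-fold lower against a floor of 3 counts over the group (edgeR adjusted p = 0.000878).

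With lipid load in MDM, 2 of these 11 isoforms were higher and 1 lower (27.3%, against 8.17% of all genes), with a median of 0.42 against 0.04. Neither median changes with Acsl6 at its bound, since it stays at the same end of the order. Agpat4 fell to 36.3 ± 11.1 CPM (-1.89, SE 0.44, edgeR adjusted p = 0.0143), a call lost without the lipid-laden MDM library 718 (0.0826). Agpat3 was higher, at 51.1 ± 8.56 CPM (1.41, SE 0.34, edgeR adjusted p = 0.0184). That call was lost without MDM 224, 221 or 718 or lipid-laden MDM 224 or 718, and when only these 2 groups were fitted (adjusted p up to 0.0688). Acsl6 had 76 counts in lipid-laden MDM, at least 32.6-fold more than the floor of MDM (edgeR adjusted p = 0.00439). In microglia none of the 11 was called, with a median of -0.15.

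Genes of neutral lipid breakdown (10 of 12 tested) had 1 call in each direction between MDM and microglia (20%, against 23.2% of all genes). Hilpda, which inhibits the triglyceride lipase ATGL, was at 135 ± 29.0 CPM in microglia, 324 ± 109 in lipid-laden microglia, 362 ± 49.7 in MDM and 232 ± 31.4 in lipid-laden MDM. It was higher in MDM than in microglia (1.43, SE 0.23, edgeR adjusted p = 0.000359). Its lipid-load difference was 1.27 in microglia (SE 0.23, edgeR adjusted p = 0.0717, with the number as a block 0.00645). In MDM that difference was -0.64 (SE 0.25, edgeR adjusted p = 0.129, with the number as a block 0.0475). These effects differed (-1.91, SE 0.34, edgeR adjusted p = 0.00703). Mgll, the monoglyceride lipase, was lower in MDM than in microglia, at 4.88 ± 4.75 against 27.5 ± 8.80 CPM (-2.51, SE 0.56, edgeR adjusted p = 0.00400).

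Lipa, the lysosomal lipase that frees cholesterol and fatty acids from ingested esters, rose with lipid load in MDM from 388 ± 60.9 to 739 ± 178 CPM (0.93, SE 0.20, edgeR adjusted p = 0.00983), a call lost without the lipid-laden MDM library 224 (0.0634). It was the only called gene of the 10 in that comparison. In microglia Lipa had 377 ± 58.4 without and 564 ± 133 CPM with lipid load (0.58, SE 0.19, edgeR adjusted p = 0.349). Nceh1, a hydrolase of cholesteryl esters, was not called in any comparison, with group means from 117 to 182 CPM.

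Of 12 droplet assembly and coat genes 5 were tested, of which 1 was called between MDM and microglia and 1 with lipid load in MDM (20% each, against 23.2% and 8.17% of all genes). Plin2, which coats droplets, was at 765 ± 149 CPM in MDM and 1426 ± 244 in lipid-laden MDM (0.90, SE 0.24, edgeR adjusted p = 0.0313). That call was lost without MDM 224, 221 or 431 or lipid-laden MDM 224 or 718 (adjusted p up to 0.126). In microglia without and with lipid load Plin2 had 818 ± 237 and 1180 ± 315 CPM (0.53, SE 0.22, edgeR adjusted p = 0.488). Plin3, another coat protein, had 69.6 ± 8.03 CPM in microglia and 119 ± 34.4 in lipid-laden microglia (0.78, SE 0.18, edgeR adjusted p = 0.154, with the number as a block 0.0371). Tmem159, a partner of seipin, was lower in MDM than in microglia (-0.82, SE 0.25, edgeR adjusted p = 0.0277), a call lost without microglia 221 or 718 or MDM 431 or 718 (up to 0.0787). Bscl2, seipin itself, was not called in any comparison.

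Of 7 tested genes of glycerol transport and of the making and use of glycerol phosphate, 4 were higher and 2 lower in MDM than in microglia (85.7%, against 23.2% of all genes), with a median of 0.96. Gpd2, the mitochondrial dehydrogenase that oxidises glycerol phosphate, was at 27.5 ± 5.33 CPM in microglia, 29.9 ± 17.7 in lipid-laden microglia, 206 ± 77.8 in MDM and 56.3 ± 8.39 in lipid-laden MDM. It was higher in MDM (2.90, SE 0.36, edgeR adjusted p = 2.98e-05) and fell with lipid load in MDM (-1.87, SE 0.38, edgeR adjusted p = 0.00630). Aqp9, a glycerol channel, was at 1.04 ± 1.21 CPM in microglia and 46.3 ± 14.6 in MDM (5.47, SE 1.21, edgeR adjusted p = 0.00395). Aqp3, another, had 0.41 ± 0.73 CPM in microglia and 14.5 ± 12.1 in MDM (5.10, SE 1.57, edgeR adjusted p = 0.0284), a call lost without MDM 224 or 221 or microglia 221, 431 or 718 (up to 0.0772). Pgp, a phosphatase that removes glycerol phosphate, had a lower level in MDM (-0.70, SE 0.20, edgeR adjusted p = 0.0194), a call lost without MDM 224 or 431 or microglia 431 or 718 (up to 0.0630).

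Of 14 tested genes of other fatty acid activation and acyl-CoA handling, 1 was higher and 1 lower in MDM than in microglia (14.3%, below the 23.2% of all genes). Acot7, an acyl-CoA thioesterase, was the higher one, at 26.3 ± 5.33 CPM in microglia and 88.8 ± 17.5 in MDM (1.76, SE 0.28, edgeR adjusted p = 0.000332). Acss1, the mitochondrial acetyl-CoA synthetase, was lower in MDM (47.0 ± 6.67 against 124 ± 17.7 CPM, -1.40, SE 0.20, edgeR adjusted p = 0.000104). It was the 1 gene of the list called with lipid load in MDM, at 104 ± 21.4 CPM (1.14, SE 0.21, edgeR adjusted p = 0.00317). Slc27a1, a fatty acid transporter, and Acot13 were not called in any comparison.

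Of 16 genes of phospholipid synthesis and remodelling, 2 were higher and 3 lower in MDM than in microglia (31.2%, against 23.2% of all genes). Lpcat3, which puts polyunsaturated chains into phosphatidylcholine, was lower in MDM (84.7 ± 13.2 against 181 ± 23.1 CPM, -1.09, SE 0.20, edgeR adjusted p = 0.00109) and higher with lipid load in MDM, at 164 ± 14.8 CPM (0.95, SE 0.21, edgeR adjusted p = 0.0118). Cds2, which turns phosphatidate away from triglyceride, had 31.3 ± 6.38 CPM in MDM against 63.9 ± 15.0 in microglia (-1.03, SE 0.19, edgeR adjusted p = 0.00119). It was also lower in lipid-laden MDM than in lipid-laden microglia (-0.93, SE 0.21, edgeR adjusted p = 0.0251). That second call was lost without lipid-laden microglia 221 or 431, without lipid-laden MDM 224, 221 or 718 and without both libraries 221 (up to 0.144). Pcyt2, of phosphatidylethanolamine synthesis, was higher in MDM (0.84, SE 0.20, edgeR adjusted p = 0.00686), and Lpcat2 was not called in any comparison.

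Among 12 tested regulators of these enzymes, 3 were higher and 2 lower in MDM than in microglia (41.7%, against 23.2% of all genes). Srebf2, the sterol-sensing factor of cholesterol synthesis, was at 11.6 ± 3.52 CPM in microglia, 50.5 ± 18.2 in MDM and 13.5 ± 4.02 in lipid-laden MDM (2.12, SE 0.36, edgeR adjusted p = 0.000493 for origin, and -1.90, SE 0.39, edgeR adjusted p = 0.00686 for lipid load in MDM). Mlxipl, which encodes the sugar-responsive factor ChREBP, was at 56.9 ± 22.9 CPM in microglia, 3.98 ± 2.54 in MDM and 17.5 ± 4.36 in lipid-laden MDM (-3.85, SE 0.44, edgeR adjusted p = 1.64e-05, and 2.15, SE 0.44, edgeR adjusted p = 0.00658). Rxra, partner of the LXR and PPAR receptors, had 17.9 ± 5.57 CPM in MDM against 42.1 ± 12.8 in microglia (-1.24, SE 0.27, edgeR adjusted p = 0.00392) and was higher with lipid load in MDM (1.46, SE 0.29, edgeR adjusted p = 0.00536). Nr1h3, which encodes the oxysterol receptor LXR alpha, was higher in MDM, at 38.4 ± 16.2 against 3.00 ± 2.17 CPM (3.68, SE 0.74, edgeR adjusted p = 0.00198). Between the lipid-laden groups Nr1h3 was also higher in MDM (2.99, SE 0.73, edgeR adjusted p = 0.0385), a call lost without any of 6 of their 7 libraries, lipid-laden microglia 221 being the exception, and without both libraries 221 (up to 0.109).

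**Figure D5:**
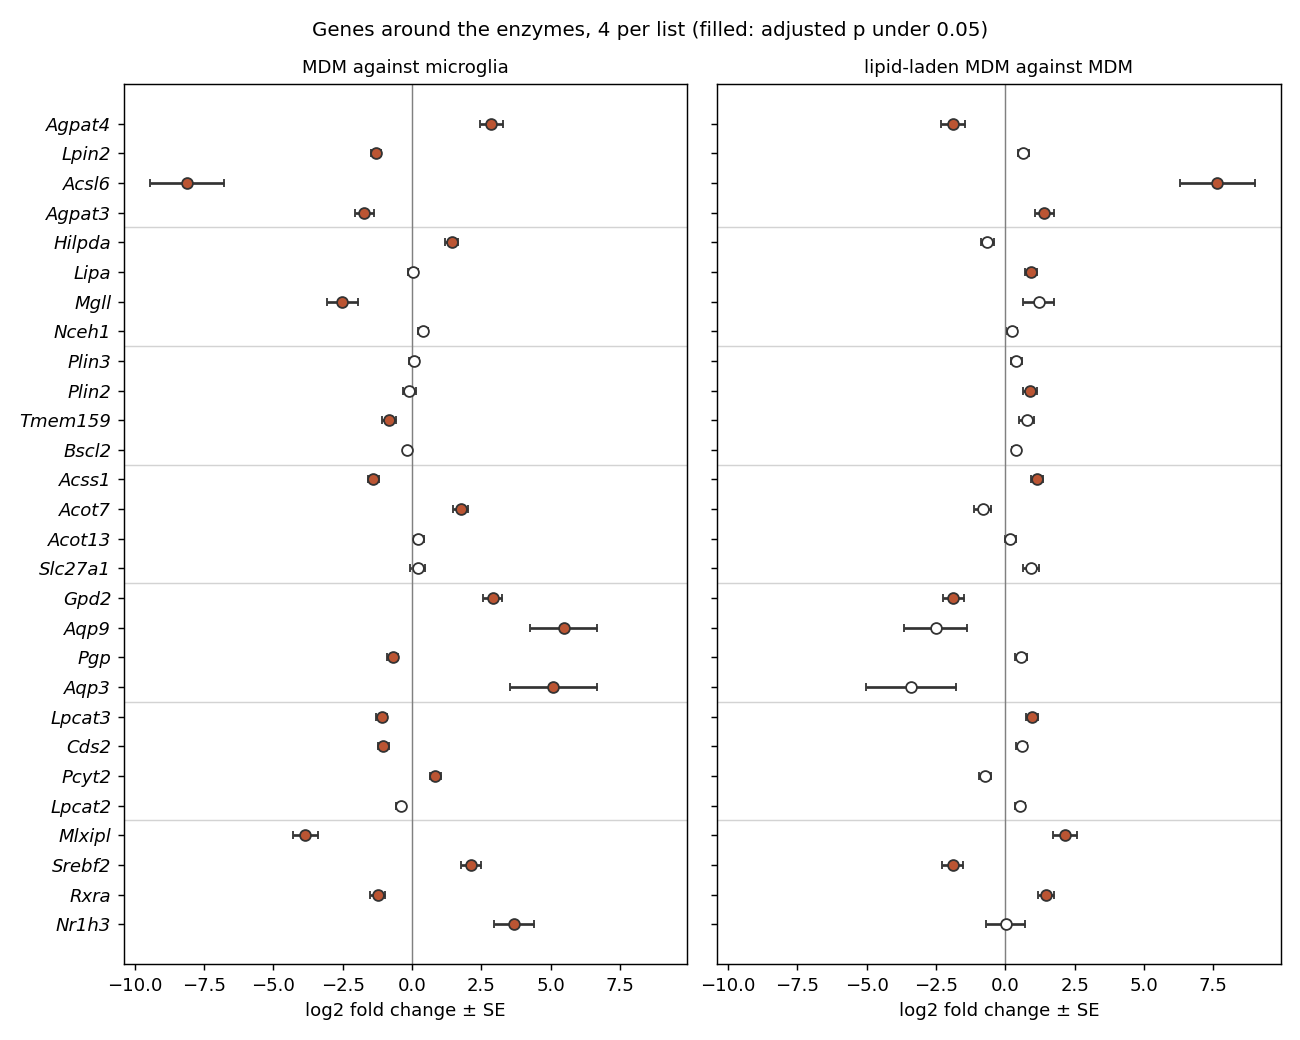
Log2 fold change (horizontal axes, ± SE) of the 4 genes with the smallest p of each list around the 10 enzymes, for MDM against microglia (left) and lipid-laden MDM against MDM (right), with filled points for an adjusted p under 0.05. Srebf2 and Gpd2 are higher in MDM (2.12 and 2.90) and lower with lipid load (-1.90 and -1.87), and Mlxipl shows the opposite signs (-3.85 and 2.15); the fitted values and errors of Acsl6, at 0 counts in MDM, are not reliable.

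These opposite signs share the MDM group, so the values on the left and right are not independent. The markers of other cells given above moved with the same groups, and their part in these differences was not tested. The 4 genes of each list shown were taken by their smallest p over the 5 comparisons.

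As a description, the genes whose log2 CPM ran most like Dgat1 over the 15 libraries, among 9353 others whose mean log2 CPM was 3 or more, were Shisa5 (Pearson r = 0.969), Txn2 (0.950) and Slfn5 (0.949). For Dgat2 they were Far1 (0.927), Rp2 (0.910) and Fbxo34 (0.887), and for Soat1 they were Scpep1 (0.907), Ifit2 (0.895) and Tspan17 (0.878). The 15 points share groups, depth and library numbers, and the genes were the closest of many.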

How the data were processed

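The authors deposited raw counts, whole numbers of reads for each gene without normalization, per the file header, on build mm10, per the submitters' processing notes. Per the labels' protocols, oligo-dT priming and template switching were used on small amounts of RNA. Neither labels nor notes used here give the aligner, the counter or the use of strand. Groups and numbers came from the titles. The 10 genes, the gene and marker lists, the tests and the rule for named genes (all 10, and the 4 of each list with the smallest p) were chosen with earlier results of these data known.

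Counts were tested with edgeR 4.0.16 (R 4.3.3): TMM scaling, filterByExpr (minimum count 10, minimum total 15; 14843 of 55486 genes kept), 1 quasi-likelihood fit of 15 libraries, Benjamini-Hochberg adjustment over all genes, call at adjusted p under 0.05. Each SE was taken from the fold change (log2) and its F statistic. The test was checked on simulated data for MDM against microglia only, with the same dispersion for every gene and changes planted in well-counted genes. That check does not cover low genes, the smaller lipid-laden MDM group or the difference of effects. Alternatives used DESeq2 1.42.0, limma 3.58.1, other scaling, no filter, the library number as a block, only the compared groups, and each library left out. Same-numbered libraries deviated together for microglia with and without lipid load (r = 0.124 to 0.256) and between the lipid-laden groups (0.107 to 0.168). Different numbers there gave at most 0.0941 and 0.0291, so numbers were taken as pairs when pairs were counted. For MDM with and without lipid load (0.0272 to 0.123, different numbers up to 0.0559) and microglia with MDM (0.0152 to 0.150, up to 0.0296) they were not. The main fit took no account of pairs, so its SE and adjusted p are unpaired in every comparison. Replicates differed by more than sampling noise (chi-square per degree of freedom at least 17.3). Exon lengths are unions of GENCODE M21 exons, and 9 of the 10 genes had the same coordinates there (not Lpin1). Promoters are RefSeq's on GRCm38.p6. Bounds against 0 counts cover counting error only.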

Additional observations from a re-analysis of the deposited data

Results flagged for a closer look

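Dgat1 in the microglia library 718, at 39.3 CPM, lay far from the other 3 microglia libraries (23.6 to 25.6 CPM). Gpat3 in the MDM library 718, at 17.7 CPM, lay far from the other MDM libraries (5.48 to 6.45 CPM). They were flagged among 10 genes in 4 groups each, and a search of that size finds some libraries apart by chance. No cause was tested.

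Acsl1 was higher with lipid load in each of 4 microglial pairs and lower in each of 3 MDM libraries than in the MDM library of the same number, though numbers were not taken as pairs in MDM. This was a difference of effects of -0.85 on the log2 scale that did not pass (edgeR adjusted p = 0.283).

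The lipid-load effect in MDM differed from that in microglia for 5 of the other genes named. Those genes had been taken by their smallest p over the 5 comparisons, this one included, so the count says nothing about their lists. Over all genes tested, 2.53% were called for this difference (375 of 14843). Hilpda differed by -1.91 (edgeR adjusted p = 0.00703) and Mlxipl by 3.21 (0.00881), and both held under all 23 alternatives. Acsl6 differed by a fitted 8.56 (edgeR adjusted p = 0.0140), a size that depends on the prior count since MDM had 0 counts. Gpd2 differed by -1.99 (edgeR adjusted p = 0.0479), which was lost in 15 of 23 alternatives, and Srebf2 by -2.03 (0.0493), which was lost in 17 of 23. For Gpd2 the adjusted p reached 0.135, and for Srebf2 0.121.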

How the results depend on the processing

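The call of Dgat1 in MDM against microglia held under all 17 alternatives, and that of Acsl1 under 10 of 17. Of the enzyme genes called, lipid-laden against other microglia gave 1 with DESeq2 and the replicate block together (Soat1) and 0 otherwise. Lipid-laden MDM against MDM gave 1 with DESeq2, 1 with limma-voom, 1 with only the compared groups (Dgat1 each time) and 3 with DESeq2 and the block (Dgat1, Dgat2, Acsl3). MDM against microglia gave 4 with DESeq2, with the replicate block and with both (Dgat1, Acsl1, Acsl5 and Lpin1), and 1 with only the compared groups. Over all genes, DESeq2, the block and both called 4130, 3969 and 5009 of 14843 in that comparison. With only the compared groups it was 3362 of 12671. The difference of effects gave 1 with DESeq2 and 1 with DESeq2 and the block (Dgat1). Leaving out each library gave 0 to 1 for lipid-laden MDM against MDM (Lpin1 without MDM 221), 1 to 4 for MDM against microglia and 0 to 1 for the difference of effects (Dgat1 without lipid-laden microglia 221). Over all genes, the same runs called 657 to 1052, 2755 to 3158 and 186 to 452, in that order. In edgeR the block changed no call of the 10 genes beyond Acsl5 and Lpin1, in a comparison where the libraries share only a number. Among the other genes named, the block brought below 0.05 the lipid-load difference in MDM of Hilpda (adjusted p = 0.0475), Mgll (0.0357) and Pgp (0.0205), that of Lpcat2 between MDM and microglia (0.0341), that of Pgp between the lipid-laden groups (0.0302), and the difference of effects of Agpat4 (0.0303), Agpat3 (0.0337) and Lpcat2 (0.0230). The difference of effects of Gpd2 was lost (0.0535).

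Several values near 0, and those of the low gene Gpat3, turned sign. Agpat2 in MDM against microglia (-0.01) became 0.00803 with DESeq2 size factors, 0.00574 with DESeq2, 0.0021 with the replicate block, 0.0019 with only the compared groups and 0.0192 with DESeq2 and the block, and ran from -0.20 to 0.24 with a library left out. With limma-voom, lipid-laden MDM against lipid-laden microglia gave 0.0110 for Soat1 and 1.39 for Gpat3. With a library left out, that comparison ran from -0.0953 to 0.0327 for Acsl1, -0.93 to 0.17 for Acsl3, -0.17 to 0.21 for Soat1, -0.67 to 0.84 for Gpat3 and -0.46 to 0.13 for Lpin1. Lipid load in microglia ran from -0.0485 to 0.27 for Acsl5, -0.56 to 1.06 for Gpat3 and -0.0138 to 0.36 for Lpin1. Gpat3 ran from -0.84 to 0.0479 for lipid load in MDM and from -1.59 to 0.0258 for the difference of effects, and Dgat2 from -0.55 to 0.149 for the latter. Without both lipid-laden libraries 221, an alternative chosen after seeing the data, as was DESeq2 with the block, no call of the 10 genes changed, but signs turned. Between the lipid-laden groups this gave 0.145 for Soat1, 0.0712 for Acsl1, 0.0225 for Acsl3 and 0.549 for Gpat3. It also gave 0.0180 for Agpat2 in MDM against microglia, -0.541 for Gpat3 with lipid load in microglia and 0.26 for Dgat2 in the difference of effects. The cause was not tested.

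Counts over all genes moved by more than 1.5 times for lipid load in microglia (0; without a filter 17, DESeq2 164, block 119, DESeq2 with block 602, a library left out 0 to 64). They did so for lipid load in MDM (1213; DESeq2 1982, with block 2552, left out 657 to 1052), between the lipid-laden groups (413; DESeq2 798, with block 1204, compared groups only 176, left out 168 to 378) and for the difference of effects (375; DESeq2 960, block 657, DESeq2 with block 1565, left out 186 to 452). The difference of effects needs all 4 groups, so it was not run with only the compared groups. Groups of 3 or 4 libraries, and counts of at most 230 in a library for Gpat3, Agpat2 and Acsl3, limit what could be detected.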
